A study of Homo sapiens with 29 samples.

Results

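Transcripts of nucleoporins and nuclear transport factors were measured in RPE1 cells by RNASeq. The genes were all protein-coding genes whose symbol is NUP followed by a number, together with named pore subunits (NDC1, POM121, POM121C, TPR, RANBP2, SEH1L, SEC13, AAAS, RAE1, AHCTF1), genes of the Ran cycle (RAN, RANGAP1, RANBP1, RCC1, NUTF2), importins (KPNB1, KPNA1, KPNA3, KPNA4, KPNA6, TNPO1, IPO5, IPO7), exportins (XPO1, CSE1L) and the mRNA export receptor NXF1. The annotation holds 49 such genes. Of these, 47 were measured in every library, among 10577 genes in the table of DMSO- and Mps1i-treated cells, 10594 in the table of MN+ and MN- cells and 9461 in the table of rupture+ and rupture- cells. NUP210L and NUP62CL were not among the genes analysed, which each hold at least 700 counts in at least 2 libraries. The smallest count of any of the 47 genes in any library was 430.

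RPE1 (hTERT RPE-1) cells derive from human retinal pigment epithelium and were immortalised with telomerase, and those used here carried a photoconvertible nuclear protein (NLS-3xDendra2) and a far-red histone (H2B-emiRFP703). Mps1i (BAY1217389, 100 nM for 24 h) blocks the checkpoint kinase Mps1, which delays anaphase until chromosomes are attached, and the missegregated chromosomes form micronuclei (MN). In visual cell sorting, cells chosen on images receive a UV pulse of 200 or 800 ms on the nucleus and are then sorted by their colour. The groups were 4 DMSO and 4 Mps1i libraries (2 experiments at both pulse lengths, cells chosen at random), 4 MN- and 4 MN+ libraries (2 experiments at both pulse lengths, all Mps1i-treated), and 3 rupture- and 3 rupture+ libraries (3 experiments, all Mps1i-treated cells with MN that were all intact or of which at least 1 had ruptured). Per the study's methods the Cdk1 inhibitor RO-3306 was added to all sorted cells, those in DMSO too, shortly before imaging. Cells of the rupture comparison were synchronised first. The sample labels name RO-3306 for this step and the methods name the Cdk4/6 inhibitor PD-0332991, and which was used cannot be told from these sources. Rupture- cells always received the 800 ms pulse and rupture+ cells the 200 ms pulse, so that pulse length and rupture cannot be told apart there.

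The nuclear pore is a large ring of many copies of each nucleoporin set into the nuclear envelope. A Y complex and an inner ring form its scaffold, membrane proteins anchor it, a central channel of flexible FG repeats forms the barrier, and filaments and a basket project into the cytoplasm and the nucleus. Importins carry cargo in and exportins carry it out, in a direction set by the GTPase Ran, which RCC1 charges with GTP on chromatin and RANGAP1 discharges at the cytoplasmic face. In dividing human cells the pore is taken apart in mitosis and rebuilt on the new nuclei, and micronuclei are known for envelopes poor in some pore proteins and in import. RNA levels, as measured here, do not show how much protein reaches an envelope.

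Total counts per library ranged from 47919780 to 145242185. Of the markers of mature retinal pigment epithelium, MITF and OTX2 were the 2 of 12 among the genes analysed, and RPE65, BEST1 and RLBP1 were not. Of epithelial and mesenchymal markers, vimentin was at 2906 to 4291 CPM, KRT8 at 466 to 783 and KRT18 at 796 to 1305 CPM in every library. COL1A1 was at 3.49 to 7.6 CPM in the DMSO, Mps1i and MN libraries and was not in the rupture table. CDH1 and EPCAM were not among the genes analysed. Of 8 leukocyte and endothelial markers only CD68 was among them. Levels are given as CPM (TMM-normalized counts scaled to library size) and levels of different genes are compared only as CPM per kb of the MANE Select transcript. In bulk libraries fewer cells of a type and less RNA per cell cannot be told apart.

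RAN, the GTPase itself, was highest in the DMSO libraries at 466 ± 25.3 CPM per kb (SD, n = 4). RANBP1, which helps release Ran from transport complexes, followed at 264 ± 13.8 and RANGAP1 stood at 124 ± 4.64 CPM per kb. CSE1L, which returns importin α to the cytoplasm, was at 114 ± 6.79 and KPNB1, the importin β that docks at the pore, at 40 ± 1.38 CPM per kb. RAN was first of the group at the RNA level in all 6 conditions, with RANBP1 and SEC13 in the next places in each. The other Ran cycle genes stood lower in DMSO, with NUTF2 at 64.9 ± 2.75 and RCC1 at 41.8 ± 1.38 CPM per kb.

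Subunits of one complex differed widely in RNA level. Within the Y complex SEC13, which also serves in the COPII coat of secretory vesicles, was at 225 ± 2.51 CPM per kb, NUP85 at 52.1 ± 2.4, NUP133 at 12.9 ± 0.368 and NUP43 at 2.47 ± 0.205 in DMSO. The inner ring was narrower, from 37.9 ± 3.37 CPM per kb for NUP188 to 9.91 ± 0.82 for NUP155. In the basket TPR and NUP50 did not differ beyond their spread, at 20.4 ± 1.09 and 20 ± 1.34 CPM per kb, while NUP153 was at 4.37 ± 0.233. These values depend on the transcript chosen for the length.

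**Figure D1:**
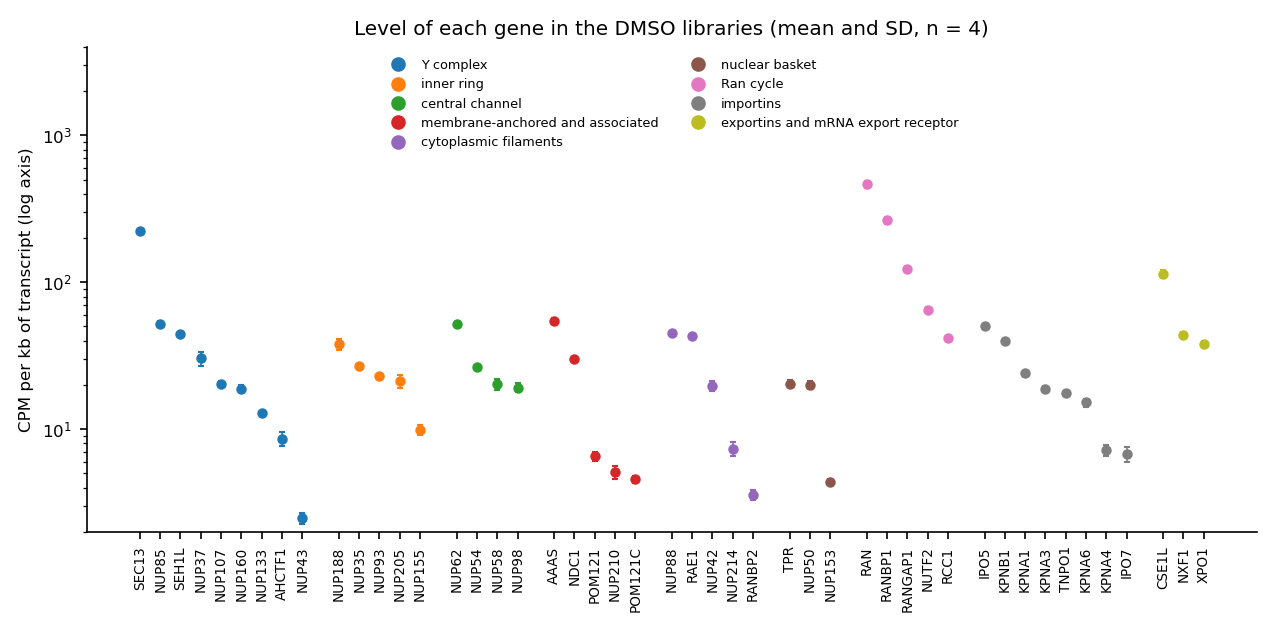
Level of each of the 47 genes in the 4 DMSO libraries, in CPM per kb of transcript on a log axis, grouped and coloured by role. Points are means and bars SDs. RAN is highest at 466 and NUP43 lowest at 2.47 CPM per kb.

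Some of these genes share sequence with others, which limits their own values. Of the 31-base words in the transcript of POM121, 73.5% also occur in transcripts of another gene, mostly its near-identical copy POM121C, for which the share was 74.3%. It was 57.4% for AHCTF1 (mostly a pseudogene), 56.2% for RANBP1 (pseudogenes), 39.3% for NUP88 (RABEP1 on the other strand) and 32.9% for RANBP2 (the RGPD family). The share was 35% for NUP42, 23.9% for IPO7, 23% for NUP62 and 21.3% for NUP50. For NDC1, NUP98, KPNA3, CSE1L, NXF1, NUP205, NUP160, NUP85, NUP54, RAE1 and AAAS no such word was shared. The sources used here do not say that the counting used strand.

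Comparing Mps1i with DMSO asks how 24 h of Mps1 inhibition changed transcript levels in cells chosen at random, with or without micronuclei. Per the study the image step that found nuclei often missed highly lobulated ones, so such cells are underrepresented. Of the 47 genes 12 fell and 0 rose (edgeR quasi-likelihood test, Benjamini-Hochberg adjusted over 10577 genes, threshold 0.05). That is 25.5% lower, where 5.76% of all genes tested were lower and 6.32% higher. The 12 came from 8 of the 9 roles, with none among the cytoplasmic filament genes. The median log2 fold change of the 47 genes was -0.141 against -0.004 for all genes, and 42 of 47 lay below 0, where 51% of all genes did. Their summed level was 7030 to 7328 CPM in the DMSO libraries and 6486 to 6718 CPM in the Mps1i libraries, without overlap. The changes were small, and the largest, in IPO7, was to 0.762 of the DMSO level.

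NDC1 (ENSG00000058804, chr1:53765478-53838463 on GRCh38) encodes a transmembrane protein that anchors the pore in the envelope. It was at 137, 134, 131 and 141 CPM in the DMSO libraries and at 107, 114, 111 and 107 CPM in the Mps1i libraries, given here and below as experiment 1 at 200 and 800 ms and then experiment 2. Every Mps1i library was below every DMSO library. The log2 fold change was -0.30 ± 0.0396 (SE), with an adjusted p of 0.00116 in edgeR, the smallest of the 47 genes. NDC1 stayed past the threshold in all 19 alternatives run for this comparison.

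POM121C (ENSG00000272391, chr7:75416786-75486299) encodes another membrane-anchored subunit. Its CPM were 25.3, 25.8, 27.9 and 28.2 in DMSO and 20.3, 17.6, 21.7 and 23.2 in Mps1i, again without overlap (log2 fold change -0.37 ± 0.0825, adjusted p = 0.0164 in edgeR). Its copy POM121 was at 40.4, 34.6, 37.6 and 40.4 CPM in DMSO and at 30.3, 25.8, 31.7 and 37.2 CPM in Mps1i. The POM121 groups overlapped, and its log2 fold change of -0.29 ± 0.0977 did not pass without the block (adjusted p = 0.0766 in edgeR) and passed with it (0.0221). How the reads were divided between these copies cannot be seen in the counts.

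Among scaffold and channel subunits 4 genes fell. NUP35 (ENSG00000163002, chr2:183117513-183161680), an inner ring protein that binds NDC1, was at 41.5, 41, 43.1 and 40.2 CPM in DMSO and at 36.9, 35.5, 32.8 and 32.4 CPM in Mps1i (log2 fold change -0.27 ± 0.0551, adjusted p = 0.0106 in edgeR). NUP58 (ENSG00000139496, chr13:25301524-25365390), which forms the channel with NUP62 and NUP54, was at 91.3, 77.3, 82 and 93.1 CPM in DMSO and at 67.4, 72.8, 70.6 and 69.7 CPM in Mps1i (-0.29 ± 0.0604, adjusted p = 0.0114). Neither gene overlapped between the groups. NUP98, an FG nucleoporin of the channel, went from 129 ± 8.73 to 111 ± 7.18 CPM (SD, n = 4, -0.21 ± 0.0591, adjusted p = 0.0386 in edgeR), and SEH1L, the called Y complex gene, from 81.5 ± 1.74 to 73.9 ± 2.14 CPM (-0.14 ± 0.0392, adjusted p = 0.0386 in edgeR). These last genes lost the call in 8 and 10 of 19 alternatives.

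In the basket NUP50 (ENSG00000093000, chr22:45163925-45188017), which helps importin α release its cargo, was at 104, 98.6, 97.4 and 113 CPM in DMSO and at 74.5, 84.7, 89.3 and 88.8 CPM in Mps1i. The groups did not overlap (-0.29 ± 0.0654, adjusted p = 0.0179 in edgeR). Its partners in the basket gave -0.13 ± 0.0636 for NUP153 and 0.01 ± 0.044 for TPR, and neither passed.

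Of the transport factors 5 of 16 fell. XPO1 (ENSG00000082898, chr2:61476032-61538741), the exportin for leucine-rich export signals, was at 179, 182, 190 and 201 CPM in DMSO and at 140, 138, 152 and 169 CPM in Mps1i (log2 fold change -0.33 ± 0.0652, adjusted p = 0.00966 in edgeR). KPNB1 (ENSG00000108424, chr17:47649476-47685505) was at 241, 241, 253 and 233 CPM in DMSO and at 209, 217, 206 and 214 CPM in Mps1i (-0.19 ± 0.0382, adjusted p = 0.00889 in edgeR). RCC1 (ENSG00000180198, chr1:28505943-28539300) was at 109, 101, 107 and 108 CPM in DMSO and at 94.5, 96.1, 88.8 and 91.2 CPM in Mps1i (-0.20 ± 0.0418, adjusted p = 0.0115 in edgeR). All of these were lower in every Mps1i library than in any DMSO library.

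The remaining called transport genes were importins. IPO7, an importer of ribosomal proteins and linker histones, went from 41.4 ± 4.87 to 31.5 ± 3.73 CPM (SD, n = 4, log2 fold change -0.39 ± 0.0973, adjusted p = 0.0253 in edgeR). KPNA3, an importin α adaptor, went from 79.3 ± 3.11 to 70 ± 1.53 CPM (-0.18 ± 0.042, adjusted p = 0.0201 in edgeR). RAN itself was at 1153 ± 62.6 CPM in DMSO and 1035 ± 49.1 CPM in Mps1i and did not pass (-0.16 ± 0.0483, adjusted p = 0.0588 in edgeR). In the other direction NXF1 was at 0.10 ± 0.0466 and KPNA1 at 0.08 ± 0.043 on the log2 scale, and neither passed.

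**Figure D2:**
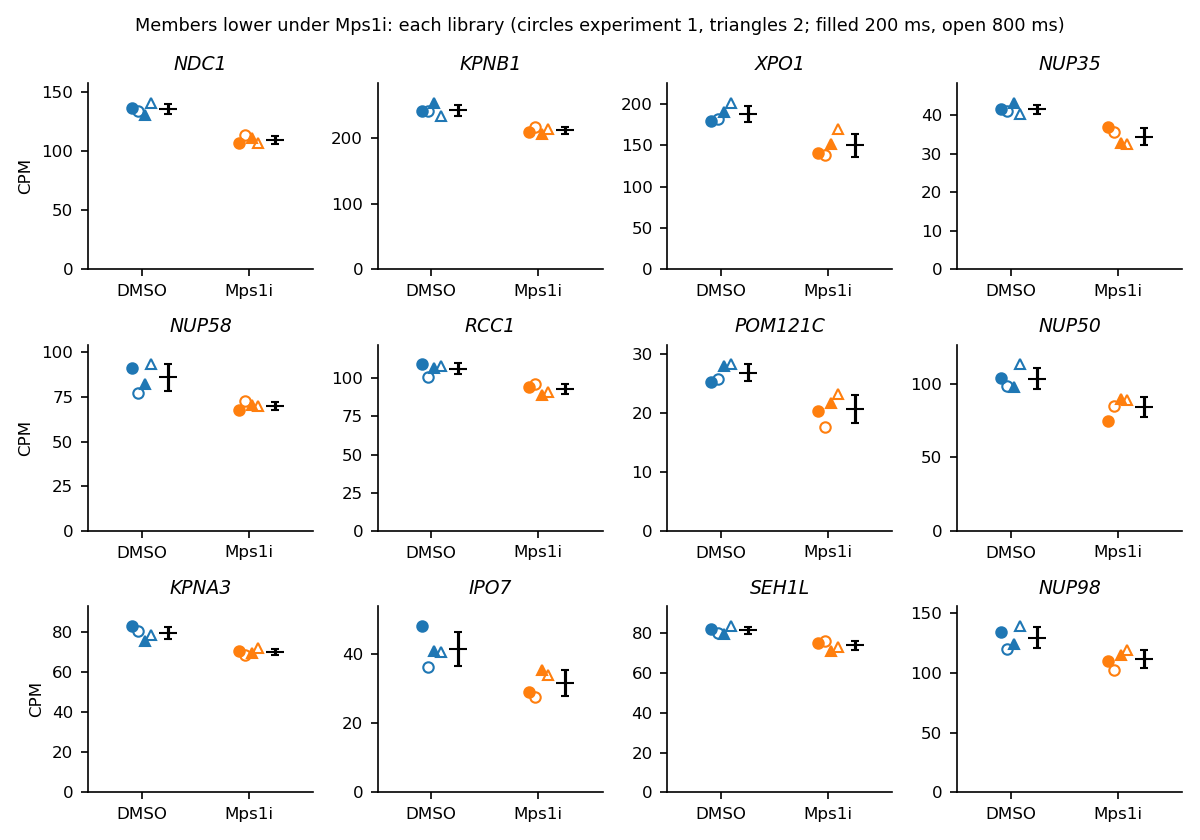
CPM in each DMSO and Mps1i library for the 12 genes past the threshold, ordered by p. Circles are experiment 1, triangles experiment 2, filled symbols the 200 ms pulse and open symbols the 800 ms pulse, and black bars are mean and SD (n = 4). In each panel every Mps1i library lies below every DMSO library.

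Groups without overlap were more frequent than these calls. In 15 of 47 genes (31.9%) every Mps1i library was below every DMSO library, where 9.23% of all genes were. The 3 of them that were not called were NUP62, NUTF2 and RANGAP1. SEC13 was the 1 gene with every Mps1i library above every DMSO library, at 304 to 311 CPM against 314 to 318 CPM, where 10.1% of all genes were, and its log2 fold change was 0.05 ± 0.0315.

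The pulse lengths of one experiment come from the same cells on the same day, and the study counts them as technical repeats, so a test over 4 libraries measures in part technical spread. The fits with only the experiment as a block keep these libraries separate, so this holds for them too. With the experiment as a block, 24 of the 47 genes were lower and 0 higher (51.1%, against 11.8% of all genes lower), and the additional genes were POM121, AHCTF1, NUP37, NUP107, NUP155, NUP62, AAAS, KPNA6, CSE1L, RAN, RANBP1 and NUTF2. In DESeq2 20 were lower and 0 higher, where 18.1% of all genes were called, 8.58% lower and 9.51% higher, and 25 were lower with the block (14.2% of all genes). With pulses summed, which joins these repeats, and the experiment as a block, edgeR called 11 lower, where 4.04% of all genes were lower. Of the additional genes only AHCTF1 and POM121 were among these 11, and KPNA3, RCC1 and SEH1L were not called there. Without experiment 2 the count was 6 (IPO7, NDC1, NUP50, POM121, POM121C and XPO1), all lower, where 2.27% of all genes were lower. Without experiment 1 it was 20, where 12.4% of all genes were lower. In a test of whether the effect differed between the experiments 0 of the 47 genes passed in edgeR, where 0.359% of all genes did, and 3 had an unadjusted p under 0.05, where 12.6% of all genes did. In DESeq2 1 gene, NUP37, passed, where 2.37% of all genes did.

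Other genes of nuclear transport were read from lists. Of 19 other import and export receptors 4 were lower and 0 higher, with KPNA2, an importin α whose RNA is known to peak late in the cell cycle, at -0.42 ± 0.0552 (adjusted p = 0.00123 in edgeR), IPO8 at -0.34 ± 0.0639 (0.00687) and TNPO3 at -0.19 ± 0.0463 (0.0217). Of 22 mRNA export factors 2 were lower and 1 higher, with DDX39B, a helicase of the TREX complex, at -0.15 ± 0.0351 and THOC5 at 0.22 ± 0.045. Of 7 SUMO genes that act at the pore SUMO2 was lower at -0.19 ± 0.0456 and the protease SENP2 higher at 0.24 ± 0.0518. The shares of these lists that were lower were 21.1%, 9.09% and 14.3%, where 5.76% of all genes were. The shares that were higher were 0%, 4.55% and 14.3%, where 6.32% of all genes were.

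Cell cycle genes moved in the same comparison. Of 60 genes of G2 and mitosis 57 were lower and 0 higher, with a median log2 fold change of -0.386, and their summed level was 16934 to 17725 CPM in DMSO and 12186 to 14065 CPM in Mps1i, without overlap. ASPM, at -0.50 ± 0.043, and UBE2C, at -0.54 ± 0.0513, were among them. Of 42 genes of G1/S and replication 5 were lower and 0 higher (median -0.139, summed level 5992 to 7309 CPM against 5261 to 6854 CPM), and 23 were lower and 1 higher with the experiment as a block. Of 29 genes that p53 activates 25 were higher and 0 lower, with CDKN1A at 1.06 ± 0.0977. The part of these movements in the lower levels of pore and transport genes was not tested.

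The promoters of the genes that fell were searched for short motifs in the 250 bases before the start, and 5 of them are shown because they hold the CHR letters or the CCAAT box, motifs typical of cell cycle promoters. Capitals mark the CHR letters TTTGAA, the CCAAT box (CCAAT) and the ETS core CCGGAAG, each on either strand, and the NRF1 motif is marked likewise where present. The GC box (GGGCGG) and the E2F motif, which can overlap each other, were searched too and are not marked. No marked motifs overlap. The sequences are from RefSeq on GRCh38.p14 and are written 5′ to 3′ in the direction of the gene.
NDC1, chr1:53838297-53838546, minus strand: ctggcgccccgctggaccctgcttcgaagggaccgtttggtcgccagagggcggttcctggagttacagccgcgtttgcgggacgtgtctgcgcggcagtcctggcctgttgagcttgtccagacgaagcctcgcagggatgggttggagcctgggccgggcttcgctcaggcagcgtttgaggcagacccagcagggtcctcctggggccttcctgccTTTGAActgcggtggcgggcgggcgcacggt
NUP35, chr2:183124193-183124442, plus strand: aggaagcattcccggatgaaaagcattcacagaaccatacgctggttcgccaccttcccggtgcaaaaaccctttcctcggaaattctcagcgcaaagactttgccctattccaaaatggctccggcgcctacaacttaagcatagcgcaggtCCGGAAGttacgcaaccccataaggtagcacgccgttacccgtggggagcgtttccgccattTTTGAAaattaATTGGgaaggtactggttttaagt
NUP98, chr11:3797547-3797796, minus strand: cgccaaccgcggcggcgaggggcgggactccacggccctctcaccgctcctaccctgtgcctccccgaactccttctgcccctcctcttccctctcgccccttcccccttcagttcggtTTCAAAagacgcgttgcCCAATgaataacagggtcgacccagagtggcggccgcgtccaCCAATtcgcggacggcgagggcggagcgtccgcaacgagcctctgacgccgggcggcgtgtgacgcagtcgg
IPO7, chr11:9384402-9384651, plus strand: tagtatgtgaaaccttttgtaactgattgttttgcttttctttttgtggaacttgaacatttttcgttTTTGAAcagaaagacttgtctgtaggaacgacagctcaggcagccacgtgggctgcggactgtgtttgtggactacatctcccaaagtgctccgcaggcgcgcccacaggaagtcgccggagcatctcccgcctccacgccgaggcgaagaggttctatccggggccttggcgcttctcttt
XPO1, chr2:61538357-61538606, minus strand: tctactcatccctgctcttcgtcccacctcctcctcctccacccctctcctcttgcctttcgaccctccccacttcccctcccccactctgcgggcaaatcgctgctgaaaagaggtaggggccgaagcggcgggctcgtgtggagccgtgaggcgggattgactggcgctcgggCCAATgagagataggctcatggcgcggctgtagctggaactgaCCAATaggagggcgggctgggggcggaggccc

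An entry was given for 42 of the 47 genes, and for 11 of the 12 that fell. The CHR letters were in the promoter of IPO7, NDC1, NUP35 and NUP98, which is 4 of 11 genes that fell (36.4%), of 5 of 31 that were not called (16.1%) and of 12% of the 8406 genes of the table with an entry. In the list of G2 and mitosis genes they were in 52.9% of 51 genes. The CCAAT box was in 3 of 11 genes that fell (27.3%), against 42.4% of all genes and 78.4% of the G2 and mitosis genes. The entries of NUP98 and XPO1 shown above held 2 copies each. A gene counted if any of its entries held a motif, and another entry of XPO1 held none of the motifs searched. The ETS letters were in 6 of 11 (54.5%) against 21%, and of these genes only NUP35 is shown above. The NRF1 motif was in 2 of 11 (18.2%) against 17.9%. The GC box was in 6 of 11 (54.5%) against 76.7%. The E2F motif was in 1 of 11, KPNA3 (9.09%), against 6.03%. Of the 31 genes not called, 38.7% held the CCAAT box, 25.8% the ETS letters and 16.1% the NRF1 motif. The GC box was in 54.8% of those 31 genes and the E2F motif in 3.23%. These are matches of letters, given with no test.

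Comparing MN+ with MN- asks whether Mps1i-treated cells classed as having a micronucleus differed from treated cells classed as having none. The study reports that its image classifier missed some micronuclei, so the MN- group holds some cells with one. Such mixing makes a difference between the groups look smaller. None of the 47 genes passed (0 of 47, and 0% of 10594 genes in edgeR), and 1 of the 47, which was lower, had an unadjusted p under 0.05, as did 7.45% of all genes (3.66% lower and 3.79% higher). A block for the experiment left edgeR with 0 of the 47 and 0.00944% of all genes. DESeq2 called 0 of the 47 and 0.0472% of all genes, and with the block 0 of the 47 and 1.57% of all genes (1.03% higher and 0.538% lower). The standard error of a gene had a median of 0.107 on the log2 scale over the 47 genes, against 0.0573 for Mps1i and DMSO, so smaller differences could be called in the latter.

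The smallest p values belonged to SEC13, RANBP2 and NUP107. SEC13 was at 341, 301, 303 and 302 CPM in MN- and at 272, 286, 280 and 281 CPM in MN+, and the groups did not overlap (log2 fold change -0.16 ± 0.0691, adjusted p = 0.641 in edgeR). RANBP2, the SUMO ligase of the cytoplasmic filaments, was at 50, 52.8, 65.7 and 53.9 CPM in MN- and at 69.2, 61.4, 57.7 and 77 CPM in MN+, with overlap (0.25 ± 0.115, adjusted p = 0.641 in edgeR). NUP107, a Y complex scaffold, was at 107, 109, 119 and 115 CPM in MN- and at 132, 130, 123 and 115 CPM in MN+ (0.15 ± 0.0751, adjusted p = 0.641 in edgeR). SEC13 was the only gene of the 47 whose groups did not overlap, where 3.14% of all genes were without overlap and lower.

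Of the 47 genes 29 lay above 0, with a median log2 fold change of 0.059 against -0.000 for all genes. The order followed transcript length. Across the 47 genes the fold change correlated with log2 transcript length at Pearson's r = 0.71 and Spearman's rho = 0.68, and across 9991 genes at 0.61 and 0.64, as a description over genes of the same 8 libraries. RANBP2 and AHCTF1, with transcripts of 11708 and 8887 bases, stood at 0.25 and 0.26, and RANBP1 and SEC13, with 1221 and 1359 bases, at -0.17 and -0.16. After removal of the per-library trends in length and GC content, with the experiment as a block, the median was -0.020 and 28 of 47 genes lay below 0, so the direction of the group turned.

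With both pulses of a group summed and the experiment as a block, 3 of the 47 genes were called higher and 0 lower (6.38% against 4.39% of all genes higher). They were AHCTF1 at 0.28 ± 0.0793, RANBP2 at 0.28 ± 0.0807 and NUP205 at 0.27 ± 0.0791 (adjusted p = 0.0139, 0.019 and 0.0213 in edgeR). With the length and GC offsets in their place the values were 0.12, 0.10 and 0.16 on the log2 scale, and none passed.

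IPO7 varied most between the libraries of this table, and is named here after its values were seen. It was at 33.1, 75.4, 17.9 and 11.8 CPM in MN- and at 55.6, 46.5, 13 and 25.4 CPM in MN+. The 4 libraries of experiment 1 were at 33.1 to 75.4 CPM and the 4 of experiment 2 at 11.8 to 25.4 CPM, so that the experiments did not overlap while the groups did. Its log2 fold change was 0.02 ± 0.567. In the DMSO libraries its range was 36.2 to 48 CPM, and 23.9% of the 31-base words of its transcript also occur in other genes.

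Across roles the Ran cycle genes lay below 0 in 5 of 5 (RAN -0.12 ± 0.0773, RANBP1 -0.17 ± 0.111, both of short transcripts). The importins, all of long transcripts (4222 to 8952 bases), lay above 0 in 8 of 8 (KPNB1 0.02 ± 0.138, IPO5 0.10 ± 0.0664). The basket genes were above 0 in 3 of 3, and every other role had genes on both sides. None of these passed. G2 and mitosis genes (0 of 60 called, median -0.034) and genes that p53 activates (0 of 30, median 0.163) gave no call either, nor did the other import and export receptors, the mRNA export factors or the SUMO genes (0 of 19, 22 and 7).

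**Figure D3:**
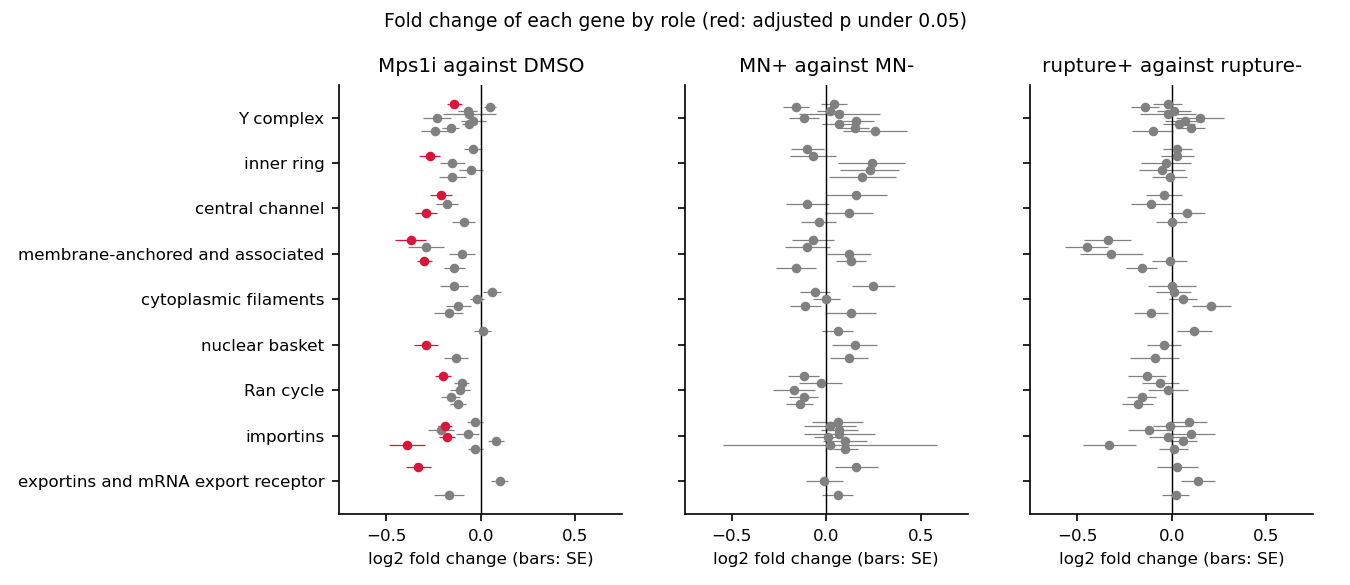
Log2 fold change with its SE for each of the 47 genes in the 3 comparisons, by role. Red marks an adjusted p under 0.05 in edgeR. All 12 red points are in Mps1i against DMSO and all lie below 0.

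Comparing rupture+ with rupture- asks whether treated cells classed as having a ruptured micronucleus differed from cells whose micronuclei were classed as intact. Per the study both classes held some misclassed cells, and some intact micronuclei were expected to rupture during the experiment. These groups are thus mixed as well. None of the 47 genes passed (0 of 47, where 3 of 9461 genes did, or 0.0317%), and 3 had an unadjusted p under 0.05, all lower, as did 8.95% of all genes (4.08% lower). DESeq2 called 0 of the 47 as well, and 0.497% of all genes (0.402% higher), or 0 of the 47 and 0.761% (0.518% higher) with the experiment as a block. The median log2 fold change was -0.011 against -0.002 for all genes. The smallest p values belonged to membrane-anchored subunits. POM121 (ENSG00000196313, chr7:72879349-72951440) was at 30, 39.9 and 35.9 CPM in rupture- and at 25.6, 25.9 and 26.1 CPM in rupture+, in the order of the experiments, and POM121C was at 19.8, 23.6 and 23.3 CPM and at 16.2, 19.5 and 16.8 CPM.

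Neither gene overlapped between the groups and both were lower in 3 of 3 experiments. The log2 fold changes were -0.45 ± 0.113 for POM121 (unadjusted p = 0.00262, adjusted p = 0.482 in edgeR) and -0.34 ± 0.122 for POM121C (adjusted p = 0.55 in edgeR), and as near-identical copies they are not independent readings. NUP210, also a membrane subunit, stood at -0.32 ± 0.168 with overlapping groups, and NDC1 at -0.01 ± 0.092. IPO7 was at 41.3, 53 and 42.5 CPM in rupture- and at 29.5, 37.9 and 41 CPM in rupture+ (-0.33 ± 0.141, adjusted p = 0.55 in edgeR). With length and GC offsets and the experiment as a block IPO7 passed, at -0.45 ± 0.0734 (adjusted p = 0.0488 in edgeR), the 1 call in any alternative of this comparison, where 0.0951% of all genes were lower.

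Groups without overlap were lower in 7 of 47 genes (14.9%, against 6.7% of all genes) and higher in 1, NUP107 (2.13%, against 9.58%). Besides POM121, POM121C and IPO7 the lower genes were RAN, NUTF2, AAAS and SEC13. The fold change of the 47 genes correlated with the GC content of the transcript at r = -0.56 (rho = -0.53), and that of 9053 genes at r = -0.56 (rho = -0.69). POM121, POM121C and NUP210 are rich in GC, at 58%, 56.9% and 58.4%, and IPO7 is poor in it at 37.5%. With the offsets POM121 stood at -0.30 ± 0.0899, POM121C at -0.22 ± 0.0858 and NUP210 at -0.14 ± 0.0896.

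**Figure D4:**
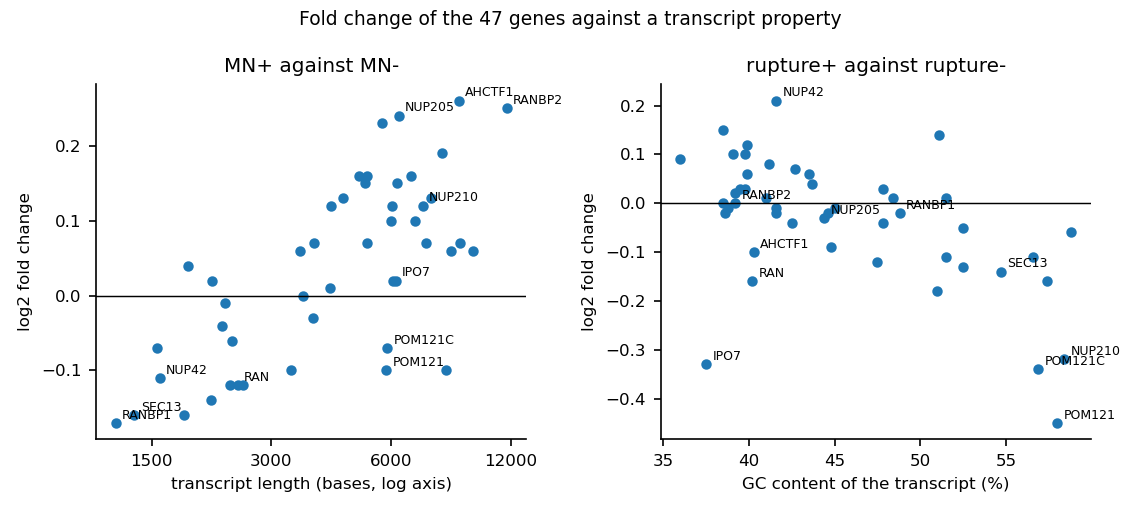
Log2 fold change of the 47 genes against transcript length in MN+ against MN- (left, log axis) and against the GC content of the transcript in rupture+ against rupture- (right). Each point is a gene. Pearson's r is 0.71 with log2 length on the left and -0.56 with GC content on the right.

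Pulse length itself was tested where both lengths were given to each group. The fit for 200 against 800 ms had experiment and condition as terms. In the table of DMSO and Mps1i libraries 0 of the 47 genes passed, where 0.00945% of all genes did. In the table of MN libraries 0 of the 47 passed, where 0% of all genes did. The median log2 differences of the 47 genes were 0.001 and 0.021, with a range of -0.16 to 0.14 and of -0.37 to 0.10. This test was added after the data were seen, and it used cells that were not synchronised. In the rupture libraries 52 of 58 genes of G2 and mitosis lay above 0 (median 0.168, 0 called), and 13 of 13 mitochondrially encoded genes lay below 0 (median -0.256, 0 called), and their part in these values was not tested. No other receptor (0 of 17), mRNA export factor (0 of 22) or SUMO gene (0 of 7) passed.

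Levels in the 6 conditions are set side by side for a few genes, chosen after their values were seen. The tables were normalized separately and their experiments are of different days, so levels were not tested across them. NDC1 was at 136 ± 4.35 CPM in DMSO and 110 ± 3.3 in Mps1i (SD, n = 4), at 132 ± 0.657 in MN- and 144 ± 14.1 in MN+ (n = 4), and at 95.5 ± 6.88 in rupture- and 95 ± 7.26 in rupture+ (n = 3). XPO1 was at 188 ± 10 and 150 ± 14.3 CPM, at 217 ± 31.9 and 242 ± 23.6, and at 127 ± 17.4 and 130 ± 8.14 CPM in the same order. Every MN library stood above every Mps1i library in both genes. Every rupture library stood below every Mps1i library in NDC1, while in XPO1 the rupture libraries, at 111 to 145 CPM, overlapped the Mps1i libraries, at 138 to 169 CPM. These gaps lie between tables of different days, so day and condition cannot be told apart in them. The share of all genes with such gaps was not counted.

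POM121C was highest in the MN table, at 39.5 ± 3.69 CPM in MN- and 37.6 ± 5.42 in MN+. It was at 26.8 ± 1.46 CPM in DMSO and 20.7 ± 2.37 in Mps1i, and at 22.2 ± 2.13 in rupture- and 17.5 ± 1.74 in rupture+. KPNB1 was at 242 ± 8.33 CPM in DMSO and 212 ± 5.1 in Mps1i. In the other tables it was at 271 ± 44.2 in MN-, 275 ± 41.9 in MN+, 242 ± 12.3 in rupture- and 240 ± 22.5 in rupture+. RCC1 was at 107 ± 3.52 CPM in DMSO and 92.7 ± 3.27 in Mps1i. Its levels were 105 ± 8.35 CPM in MN-, 96.5 ± 5.42 in MN+, 108 ± 8.5 in rupture- and 98.6 ± 10.7 in rupture+. The spread between libraries was wider in the MN table, where the coefficient of variation over the 47 genes had a median of 9.92% in MN- and 9.78% in MN+, against 5.33% in DMSO and 4.92% in Mps1i.

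**Figure D5:**
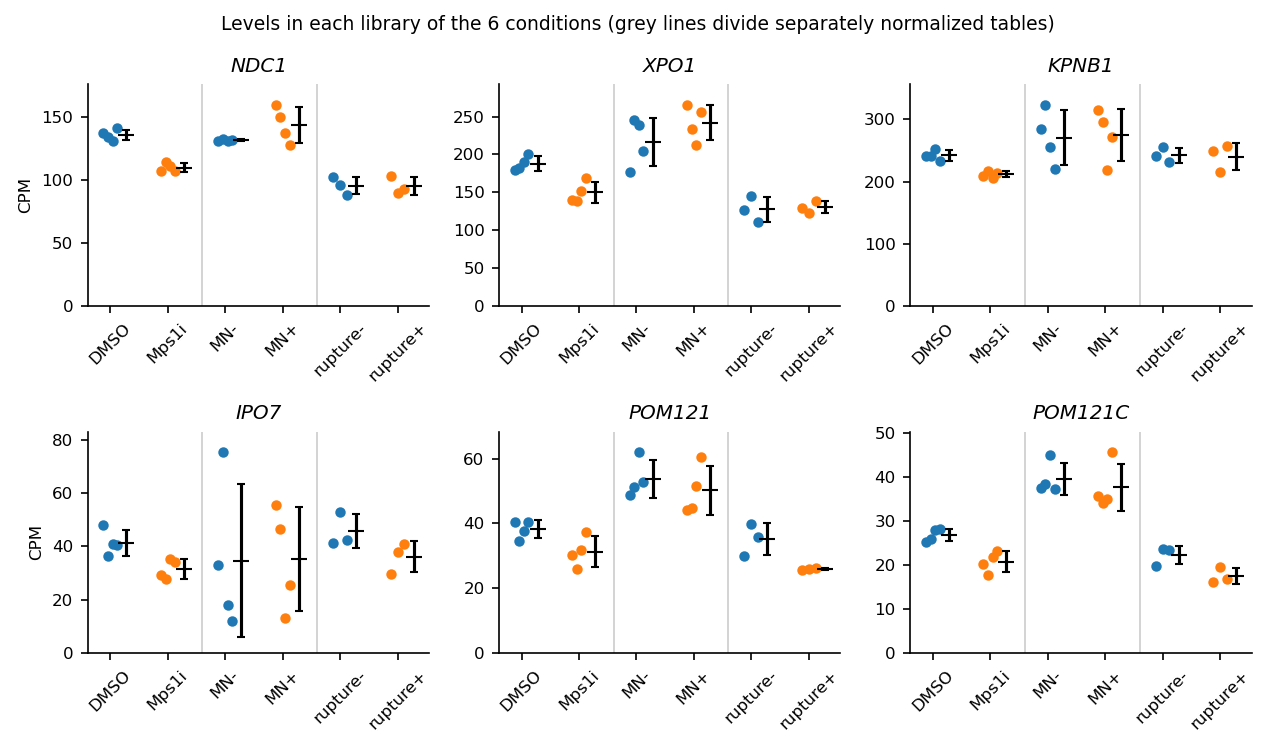
CPM in each library of the 6 conditions for NDC1, XPO1, KPNB1, IPO7, POM121 and POM121C. Black bars are mean and SD (n = 4, 4, 4, 4, 3 and 3), and grey lines divide tables that were normalized separately. IPO7 spans 11.8 to 75.4 CPM in the MN table, and the 3 rupture+ libraries of POM121 lie between 25.6 and 26.1 CPM.

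The fold changes of the 3 comparisons were tested against each other in 1 fit over 9431 genes. The MN effect was higher than the Mps1i effect for NDC1, by 0.43 ± 0.0925 on the log2 scale (adjusted p = 0.0475 in edgeR), 1 of 47 genes where 0.117% of all genes were higher. With the day as a block 4 of the 47 were higher, NDC1, NUP107, NUP50 and NUP98, where 1.78% of all genes were (adjusted p for NDC1 = 0.00427 in edgeR), and DESeq2 called NDC1 and NUP107, where 0.944% of all genes were higher. These fits take the pulse lengths of an experiment as separate libraries. The NDC1 call is narrow, since it was lost in 15 of 25 alternatives, all of which left out 1 library, with adjusted p up to 0.118. Over the 47 genes the difference had a median of 0.186, against -0.012 for all genes, and lay above 0 in 40 of 47. Length and GC offsets, with which the median MN effect turned its sign, were not used in this fit.

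The rupture effect differed from the Mps1i effect in 0 of 47 genes in edgeR, where 0.594% of all genes passed, and 8 had an unadjusted p under 0.05, where 9.78% of all genes did. With the day as a block 1 gene, NDC1, was higher (adjusted p = 0.0396 in edgeR), where 1.89% of all genes were. The difference had a median of 0.105, against 0.002 for all genes. The rupture effect differed from the MN effect in 0 of 47 genes, where 0% of all genes passed, and 2 had an unadjusted p under 0.05, where 4.89% of all genes did. Whether the MN effect differed between its experiments gave 0 of 47 genes in edgeR and in DESeq2, where 0.00944% and 0.0472% of all genes passed, and 2 had an unadjusted p under 0.05, where 3.11% of all genes did.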

How the data were processed

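Expression was measured by RNASeq of cells isolated by visual cell sorting, in 22 libraries given as 29 deposited samples. Per gene, the authors deposited estimated counts. They mapped reads with Salmon (1.2 per the submitters' notes, with bcl2fastq 2.20) to hg38 with GC-bias correction, summarised the estimates to genes with tximeta and left out genes that did not reach 700 counts in 2 or more samples. These are given as whole numbers and carry no scaling for depth. That a column is the sum of a library's deposited parts was read from its name and is not stated. The tables hold no length offsets.

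Groups came from the sample titles. That iMN and dMN stand for rupture- and rupture+ rests on the titles' pulse lengths and the study's methods. The main test was the quasi-likelihood test of edgeR 4.0.16 under R 4.3.3, after TMM scaling and with no term but condition. P-values were Benjamini-Hochberg adjusted over every gene of a table (threshold 0.05). Each SE was obtained by dividing the absolute fold change (log2) by the root of F. Alternatives were DESeq2 1.42.0 (likelihood ratio test), limma-voom (limma 3.58.1), DESeq2 size factors, filterByExpr, pulse length as a term, pulses summed, the well or experiment as a block, length and GC offsets (natural splines, 4 degrees of freedom) and fits that omit a library or an experiment in turn. Libraries of 1 experiment share a day in the titles, which is where the pairing comes from. Deviations of log2 CPM (prior count 2) from group means correlated within an experiment at r = 0.0279 to 0.380 (Mps1i and DMSO), -0.0133 to 0.659 (MN) and 0.0095 to 0.229 (rupture). No pair of libraries agreed within counting noise.

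The genes, role lists and context lists were chosen with earlier results of these data known. Every gene of the group could be named. Values per library are given for up to 8 genes per direction with the smallest adjusted p past the threshold, otherwise for the 3 with the smallest p, for near-identical copies and for genes past a test of a difference. Up to 3 genes are named per context list, cell type markers apart. IPO7 in the MN table, the genes named beside an alternative and those set side by side over the conditions were chosen after their values were seen. Lengths, positions and shared words (31 bases) come from GENCODE v44 on GRCh38, and promoters from RefSeq on GRCh38.p14. The fits were checked on simulated data, and Python 3.11.15 made the tables. Protein sequences were not used here.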

Additional observations from a re-analysis of the deposited data

Results flagged for a closer look

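In 188 groups of 4 libraries, 4 for each of the 47 genes, 11 held a library that stood apart from the other 3 by Dixon's test (critical value 0.829). Chance flags about 1 in 20 groups of independent libraries. Libraries of 1 experiment are not independent, so this rate may not hold here. In the DMSO libraries the values that stood apart were NUP85 at 119 CPM in experiment 1 at 200 ms, where the others were at 108 to 109, and SEC13 at 311 CPM in experiment 2 at 200 ms against 304 to 305. In the Mps1i libraries NUP88 was at 170 CPM against 159 to 160 and TPR at 204 CPM against 194 to 195, both in experiment 1 at 800 ms.

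In the MN- libraries NUP43 was at 20.9 CPM in experiment 1 at 800 ms against 12.7 to 13.4, SEC13 at 341 CPM in experiment 1 at 200 ms against 301 to 303, and NDC1 at 133 CPM in experiment 1 at 800 ms against 131 to 132. POM121C was at 45 CPM in experiment 2 at 200 ms against 37.3 to 38.3. In the MN+ libraries NUP58 was at 58.4 CPM in experiment 1 at 800 ms against 80.3 to 82.5, RAE1 at 87.1 CPM in experiment 1 at 200 ms against 96.9 to 98.6, and POM121C at 45.7 CPM in experiment 2 at 800 ms against 34 to 35.7.

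In the main test the MN effect on NDC1 exceeded the Mps1i effect by 0.43 on the log2 scale (adjusted p = 0.0475 in edgeR). This call was lost in 15 of 25 alternatives, and none of the alternatives used length and GC offsets. NDC1 was lower in 4 of 4 matched Mps1i libraries and higher in 3 of 4 matched MN+ libraries.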

How the results depend on the processing

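For Mps1i against DMSO the count of 12 lower genes became 24 with the experiment as a replicate block, 20 in DESeq2's likelihood ratio test, 26 in that test with the block (25 lower and NXF1 higher), 28 with length and GC offsets and the block (27 lower and KPNA1 higher), 20 without experiment 1 and 6 without experiment 2. Leaving out 1 library gave 9 to 12. Of all 10577 genes the main test called 1277 in either direction. The fit with offsets and the block called 3159 genes, so the rise to 28 came with a rise over the whole table. Without 1 library 717 to 1219 of all genes were called. In MN+ against MN- the count of 0 became 3 with pulses summed and the replicate block, and 0 to 0 without 1 library. In rupture+ against rupture- it became 1 with offsets and the block, and 0 to 0 without 1 library. For the differences between comparisons, the MN and Mps1i effects differed in 4 genes with the day as a replicate block, in 2 in DESeq2, and in 0 to 1 without 1 library, and the rupture and Mps1i effects in 1 with the day block. The Mps1i effect differed between experiments in 1 gene in DESeq2 (NUP37) and in 0 to 1 without 1 library (IPO7, without the DMSO library of experiment 1 at 800 ms). The other alternatives of these counts, 119 of 147 in all, stayed within 1.5 times. For the 12 called genes and the NDC1 difference, 206 of 253 values kept the call and 47 lost it, and none changed sign. Of the losses 10 were in SEH1L, 8 in NUP98, 5 in IPO7 and 4 in KPNA3, and NDC1, XPO1, POM121C and NUP50 lost none in Mps1i against DMSO. The cause was not tested. A fit without 1 experiment has fewer libraries, and genes under 700 counts could not be measured. Without 1 library of a group of 3, the remaining libraries share the fit's estimate of spread.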
